A study of Mus musculus with 5 samples.

Results

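The genes described here encode proteins that hepatocytes make and release into the blood. They were 38 genes, chosen by name, of 37074 gene names on the array: 9 apolipoproteins, 11 carriers and binding proteins, 8 factors of clotting and fibrinolysis and 10 protease inhibitors. All 38 were found, and where a gene had several probes the brightest was used. Albumin, transferrin and transthyretin carry fatty acids, iron and thyroid hormone in the plasma, and apolipoproteins form the protein part of lipoprotein particles. The liver is also the main source of fibrinogen, prothrombin and the inhibitors that restrain plasma proteases. These genes are textbook markers of the hepatocyte, and endothelial cells are not known as a source of most of them. Many are driven by liver-enriched transcription factors such as HNF4A, the FOXA proteins and C/EBP, and hepatoma cell lines keep a varying part of the program.

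Gene expression was measured on 5 one-color Agilent arrays of mouse probes, with 1 array for each condition and no replicate. LSEC were liver sinusoidal endothelial cells from mouse liver, labelled C57BL/6 and given no treatment in the labels. TEC were tumor endothelial cells from orthotopic tumors of HAK-1B, KYN-2 or Hepa1-6 cells, also labelled C57BL/6, and the fifth sample was Hepa1-6 cells grown in culture, labelled C57L. The HAK-1B and KYN-2 lines came from human hepatomas, so their tumors were xenografts, and Hepa1-6 is a mouse hepatoma line. The methods name female C57BL/6 or nude (BALB/c nu/nu) mice bought at 6 weeks of age, without saying which mice carried which tumor, and the paragraph on arrays names Huh-7 where the labels name HAK-1B. TECs were the cells of digested tumors that bound CD31 magnetic beads, so other cells of the tumor or liver could be carried along. The paper holds that some carry-over of cancer cells cannot be avoided by this method, and it took cancer cell-related genes out of its TEC list. Fewer cells of a type and less RNA per cell cannot be told apart in such samples.

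Values below are log2 signals after quantile normalization of the 5 arrays, and a probe was called measured where the scanner software marked it well above background. A probe's level is compared with its own level on other arrays only, never with that of another probe. Where a probe was measured on 1 side of a comparison, the fold is a lower bound ("at least"), taken against the dimmest probe that was measured on the other array or against the probe's own signal where that was higher. Between 44.6% and 78.1% of all probes were measured, fewest on the culture array and most on the Hepa1-6 TEC array. The scanner's own error for the measured members had a median of about 10% of the signal, and says nothing of how animals vary. LSEC, culture and TECs were hybridized on 3 separate slides, with all TECs on a single slide, so group and slide cannot be told apart except between TECs. Marker genes were checked against the labels. All 12 pan-endothelial and all 8 LSEC markers were measured on the LSEC array and on each TEC array, and Pecam1, which encodes CD31, read 11.10 in LSEC, 9.93, 11.01 and 9.15 in HAK-1B, KYN-2 and Hepa1-6 TECs and was not well above background in culture. Stab2, a scavenger receptor of LSECs, read 17.26, 12.90, 14.33 and 13.98 in the same order and was likewise not measured in culture. By the median both lists lay below LSEC in each TEC, and Pecam1 fell less than most of its list. In HAK-1B, KYN-2 and Hepa1-6 TECs the median difference from LSEC was -2.86, -1.63 and -2.66 over the pan-endothelial markers. For the LSEC markers it was -3.41, -2.66 and -2.99. In culture 3 of the 12 and 1 of the 8 were measured: Egfl7 (11.46), Esam (10.43), Eng (6.26) and Stab1 (7.37), each lower than on any endothelial array.

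The DNA before each gene was read as context. In RefSeq (GRCm38.p6), 30 of the 38 genes had a promoter entry, and the 250 bases before each start were searched on both strands. The letters TGTTTAC of the Foxa site were found in 3 of the 30 members (Apoa2, Apoh and Rbp4) and in 3.54% of all 27025 genes with an entry. Those of the C/EBP site, TTGCGNAA, were found in 1 member, Ahsg (0.762% of all genes). The 3 genes with a match within 120 bases before the start are shown over those bases, with the match in capitals, because these liver factors are known regulators of plasma protein genes. The match began 77 bases before the start in Apoa2, 71 in Apoh and 32 in Ahsg.
Apoa2 (chr1:171224934-171225053, plus strand): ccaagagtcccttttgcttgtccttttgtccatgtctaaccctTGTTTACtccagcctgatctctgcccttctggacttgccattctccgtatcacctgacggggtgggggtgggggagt
Apoh (chr11:108395177-108395296, plus strand): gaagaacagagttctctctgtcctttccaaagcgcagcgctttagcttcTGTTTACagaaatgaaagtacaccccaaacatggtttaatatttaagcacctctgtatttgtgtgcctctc
Ahsg (chr16:22891895-22892014, plus strand): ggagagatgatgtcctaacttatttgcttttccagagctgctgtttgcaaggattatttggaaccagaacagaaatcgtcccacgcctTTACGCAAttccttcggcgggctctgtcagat
The letters CAAAGTCC of the HNF4 site were found in none of the members (1.38% of all genes) and the TATA letters TATAAA in 5 (14.3%). A match describes the letters and is not a binding site.

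Detection of the 38 genes set the arrays apart. In LSEC 37 were measured, all but F9. The Hepa1-6 TEC array measured 36, the KYN-2 TEC array 31, the HAK-1B TEC array 25 and the array of cultured Hepa1-6 cells 15. With any probe of a gene HAK-1B TEC measured 27. Among all genes the shares measured were 56.0% in LSEC, 79.1% in Hepa1-6 TEC, 56.4% in KYN-2 TEC, 58.6% in HAK-1B TEC and 47.2% in culture, so the LSEC and HAK-1B TEC arrays measured like shares of all genes and unlike numbers of the plasma protein genes. By role, HAK-1B TEC measured 4 of 9 apolipoproteins, 9 of 11 carriers, 6 of 8 clotting factors and 6 of 10 inhibitors. KYN-2 TEC measured 8, 9, 5 and 9 of these, and culture 4, 5, 1 and 5. On all 5 arrays 13 genes were measured. Several probes were present for 14 genes, and they gave the difference from LSEC the same sign in 13 of the 14 in HAK-1B TEC, in 10 in KYN-2 TEC, in 9 in Hepa1-6 TEC and in 11 in culture.

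**Figure D1:**
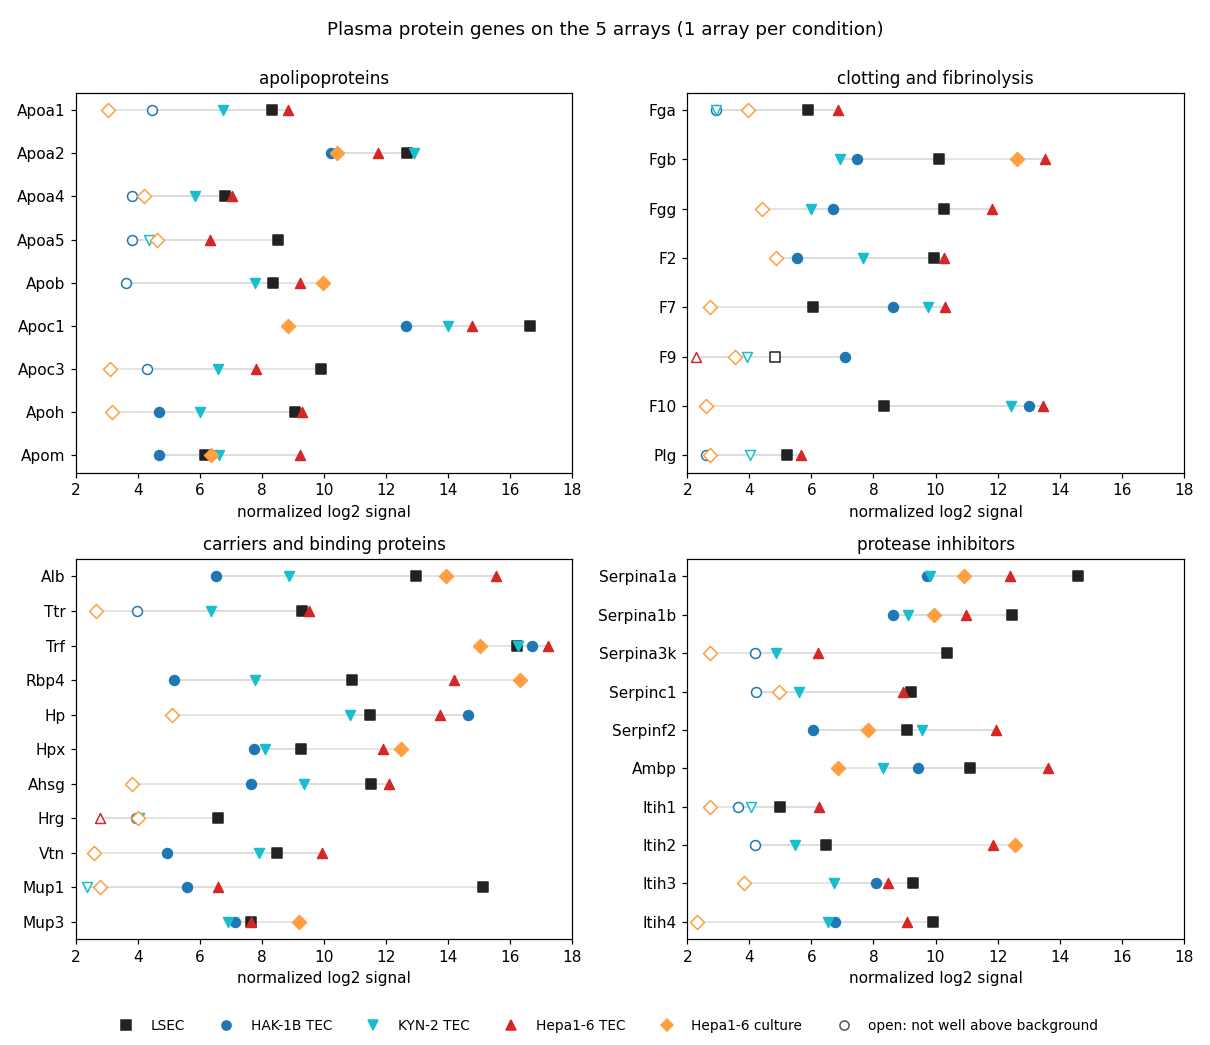
Normalized log2 signal of the 38 plasma protein genes, 1 row a gene and 1 panel a role, with a symbol for each of the 5 arrays; open symbols were not well above background. Read along a row only: for most genes the HAK-1B TEC symbol lies left of the LSEC symbol, F10 and F7 lie right of it on all TEC arrays, and Mup1 is far right in LSEC alone.

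Endothelium of HAK-1B tumors had much less plasma protein RNA than LSEC. The median difference over the 38 genes was -3.09 on the log2 scale, beside -0.0023 over all 20315 genes compared, and the same median was found over the 24 genes measured on both arrays (-3.09). By the ratio alone (1.5-fold higher, or 0.66 of LSEC or less), 32 of 38 were lower, where 27% of all genes were, and 4 were higher, where 26.6% of all genes were. The study's rule of size also asks for a Z-score of 2, which here came to a 6.91-fold decrease. By that rule 22 of 38 were lower (3.96% of all genes) and 2, Hp and F10, were higher (3.13% of all genes). KYN-2 TEC showed a smaller distance, with a median of -2.54 over 37 genes (-2.18 with dim genes at their bounds) beside -0.05 over all 19843 genes. Ratios alone placed 30 of 37 genes lower (28.5% of all genes) and 2 higher (26% of all genes), and the rule of size 16 lower (2.9%) and 2, F7 and F10, higher (3.67%).

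Hepa1-6 TEC did not share that deficit. The median over 37 genes was 0.51, beside 0.09 over all 26455 genes, with an interquartile range from -0.81 to 2.52. By the ratio 18 of 37 (48.6%) were higher, where 35.4% of all genes were, and 11 (29.7%) were lower, where 30.9% were. The share lower was thus near that of all genes, and the share higher was somewhat above it. The rule of size, which here asked for 11.4-fold higher or 9.84-fold lower, placed F7, F10 and Itih2 higher (4.48% of all genes) and Hrg, Mup1 and Serpina3k lower (2.04%). After normexp background correction it placed 11 higher and 3 lower. The share of all genes called after that correction is not given here. All 3 comparisons used the same LSEC array.

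Compared directly on the same slide, Hepa1-6 TEC had more of these RNAs than the xenograft TECs. Hepa1-6 tumor cells are mouse, those of the xenografts human, and the probes are mouse. Tumor line and species of the tumor cells therefore cannot be told apart in this comparison. Of 24 genes measured in both Hepa1-6 TEC and HAK-1B TEC, 23 were higher in Hepa1-6 TEC, with a median difference of 3.43, and the exception was Hp. Over all 18897 genes measured on both arrays 42.1% were higher, with a median of -0.17. Of 31 measured in both Hepa1-6 TEC and KYN-2 TEC, 30 were higher in Hepa1-6 TEC, with a median of 2.54, beside 41.7% of all 18376 such genes and a median of -0.18. The exception was Apoa2 by its brighter probe, and by the other it was higher by 3.22 in Hepa1-6 TEC. These counts used the brightest probes, and dimmer probes measured on both arrays were divided. Those of Apob (-0.60), Apoc3 (-1.11), Itih4 (-0.57) and Serpinc1 (-0.27) put Hepa1-6 TEC below KYN-2 TEC. Against HAK-1B TEC, those of Apoc3 (-1.61) and Itih4 (-0.88) did, and that of Serpinc1 did not. Dimmer probes of Apoa2, Alb, Trf and Serpina1a were higher in Hepa1-6 TEC in both comparisons. Alb showed the widest gap, 522-fold above HAK-1B TEC and 103-fold above KYN-2 TEC. KYN-2 TEC in turn was above HAK-1B TEC: the median over 33 genes was 1.27 (1.18 with dim genes at their bounds), beside -0.02 over all 20018 genes, and over the 23 measured on both arrays it was 0.47. By the ratio 19 of 33 were higher in KYN-2 TEC (20% of all genes) and 6 lower (18.7%), and by the rule of size 12 were higher (3.18%) and 3, Hp, Mup1 and F9, lower (2.85%).

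**Figure D2:**
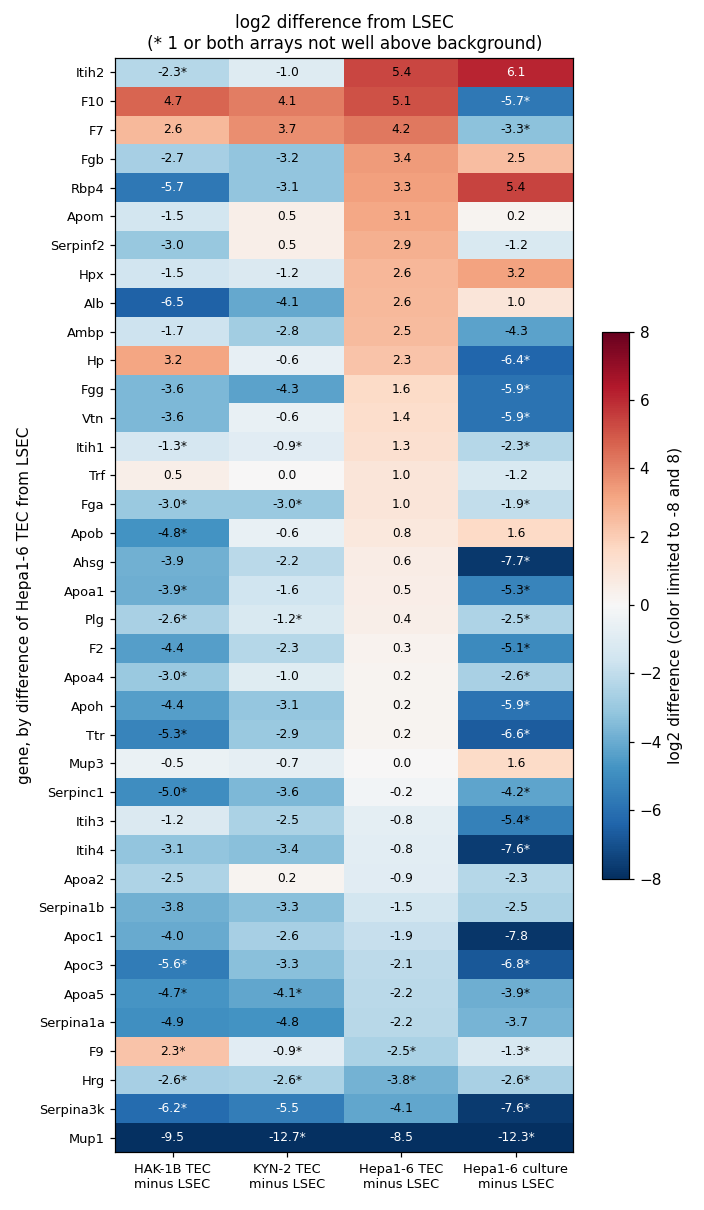
The log2 difference of each of 4 arrays from LSEC for the 38 genes, sorted by Hepa1-6 TEC; red is higher than LSEC and blue lower, and an asterisk marks values where either array was not well above background. The HAK-1B and KYN-2 TEC columns are mostly blue, the Hepa1-6 TEC column runs from red to blue, and F10 and F7 are red in all TEC columns and blue in culture.

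The apolipoproteins were lower in HAK-1B TEC as a group. All 9 lay below LSEC by more than the ratio limit, with a median of -4.01 and differences from -5.59 to -1.46. Apoc1, a small lipoprotein component that inhibits lipases and lipid transfer, was the member of this role with the widest range: it read 16.64 in LSEC, 12.63 and 14.00 in HAK-1B and KYN-2 TECs, 14.77 in Hepa1-6 TEC and 8.84 in culture. It was thus 16.1-fold lower in HAK-1B TEC, 6.19-fold lower in KYN-2 TEC, 3.65-fold lower in Hepa1-6 TEC and 223-fold lower in culture. Apoc3, an inhibitor of triglyceride clearance, read 9.88, 4.30, 6.57, 7.81 and 3.10 on the arrays in the same order. Its HAK-1B TEC and culture signals were not well above background, so it was at least 48.0-fold lower in HAK-1B TEC and at least 15.1-fold lower in culture than in LSEC by this probe. A dimmer Apoc3 probe, which lists 1 of the RefSeq transcripts, read 6.18 in LSEC and 5.82 in HAK-1B TEC, both measured and 1.28-fold apart, so the size of the Apoc3 difference depends on the probe.

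Apob and Apoh, the structural protein of VLDL and LDL and a phospholipid-binding plasma protein, were at different places in culture. Apob read 8.36 in LSEC, 3.60 in HAK-1B TEC (not measured), 7.77 in KYN-2 TEC, 9.21 in Hepa1-6 TEC and 9.95 in culture. Culture held the highest Apob signal, 3.0-fold above LSEC, and HAK-1B TEC was at least 17-fold below LSEC. The second Apob probe read 6.09, 2.62 (not measured), 6.52, 5.91 and 7.61, so it put KYN-2 TEC slightly above and Hepa1-6 TEC slightly below LSEC, against the first. Apoh read 9.06, 4.68, 5.99, 9.28 and 3.15 in that order, with the last not measured. Hepa1-6 TEC was close to LSEC for Apoh (1.16-fold) and at least 9.97-fold above the culture array. Apoa1, the main protein of HDL, had the same order of arrays (8.32, 4.44, 6.75, 8.83 and 3.04, the HAK-1B TEC and culture values not measured).

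Apoa1, Apoc3, Apoa4 and Apoa5 are neighbors, with probes inside 41.6 kb at chr9:46037921-46079490 (mm9, the build of the probe positions). By their brightest probes none of the 4 was measured in HAK-1B TEC. In Hepa1-6 TEC all were, with Apoa1 and Apoa4 within 1.42-fold of LSEC and Apoc3 and Apoa5 4.20-fold and 4.55-fold lower. In culture none of the 4 was measured. Apom, an HDL protein that carries sphingosine 1-phosphate, was the apolipoprotein furthest above LSEC in Hepa1-6 TEC: it read 6.15, 4.69, 6.61, 9.23 and 6.35, an 8.45-fold difference. Apoa2, the other main HDL protein, gave a different answer with each of its probes. The brighter probe read 12.68, 10.22, 12.91, 11.75 and 10.41, and the other read 11.23, 4.91, 7.29, 10.52 and 8.80. KYN-2 TEC was level with LSEC by the first and lower by 3.94 on the log2 scale by the second, so no level of Apoa2 in KYN-2 TEC is given.

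Among the carriers, Mup1 showed the widest range of any member. Mup1 belongs to the major urinary proteins, pheromone carriers made by the liver of rodents. Its probe read 15.11 in LSEC, 5.57 in HAK-1B TEC, 2.36 and not measured in KYN-2 TEC, 6.56 in Hepa1-6 TEC and 2.77 in culture (not measured). It was 742-fold lower in HAK-1B TEC, at least 1406-fold lower in KYN-2 TEC, 373-fold lower in Hepa1-6 TEC and at least 566-fold lower in culture. The probe lists several Mup transcripts, and members of this family are near-identical, so the signal cannot be given to Mup1 alone. For Mup3 the brightest probe lists a cDNA clone and no RefSeq transcript, and it read between 6.90 and 9.20 on the 5 arrays. Both other Mup3 probes, which list the RefSeq transcript, read 10.94 and 11.38 in LSEC and were not well above background on any other array. By these the drop of Mup3 resembled that of Mup1, and the flat signal came from the probe of the cDNA clone.

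Albumin followed the tumor line. Alb read 12.97 in LSEC, 6.51 and 8.85 in HAK-1B and KYN-2 TECs, 15.54 in Hepa1-6 TEC and 13.94 in culture. It was 88.0-fold lower in HAK-1B TEC and 17.3-fold lower in KYN-2 TEC than in LSEC, and 5.93-fold higher in Hepa1-6 TEC. The second Alb probe kept the order (11.68, 6.21, 8.35, 14.96 and 13.11). Rbp4, the plasma carrier of retinol, had the same order of the endothelial arrays: it read 10.90, 5.16, 7.76, 14.17 and 16.33. Culture held the highest Rbp4 signal, 43.1-fold above LSEC, and Hepa1-6 TEC lay 4.45-fold below culture. Hpx, which binds free heme, was 9.24-fold above LSEC in culture and 6.23-fold above it in Hepa1-6 TEC (9.25, 7.75, 8.08, 11.89 and 12.46). Its decreases in the xenograft TECs were small, 2.85-fold and 2.25-fold.

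Ahsg, Vtn and Ttr were at or above the LSEC level in Hepa1-6 TEC and not measured in culture. Ahsg, the inhibitor of calcification fetuin-A, read 11.51, 7.64, 9.34, 12.10 and 3.82. Vtn, an adhesive protein of plasma and matrix, read 8.49, 4.92, 7.89, 9.91 and 2.59. Ttr, which carries thyroxine and the retinol carrier, read 9.28, 3.98 (not measured), 6.34, 9.5 and 2.65. In each the HAK-1B TEC array was below the KYN-2 TEC array and the latter below LSEC. Hrg, a heparin-binding plasma glycoprotein whose probe lies 62.1 kb or less from that of Ahsg, read 6.58 in LSEC and was not measured anywhere else.

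Haptoglobin and transferrin departed from the other carriers in HAK-1B TEC, where both were above LSEC. Hp, which binds free hemoglobin, read 11.46 in LSEC, 14.64 and 10.84 in HAK-1B and KYN-2 TECs, 13.74 in Hepa1-6 TEC and 5.10 in culture (not measured). HAK-1B TEC was thus 9.04-fold above LSEC and 14.0-fold above KYN-2 TEC, and Hepa1-6 TEC was 4.84-fold above LSEC and at least 219-fold above culture. Trf, which carries iron, stayed between 16.22 and 17.22 on the endothelial arrays (16.22, 16.70, 16.26 and 17.22), and was lowest in culture at 15.03. The largest TEC difference from LSEC for Trf was 2.0-fold, in Hepa1-6 TEC, and its second probe ordered LSEC, KYN-2, HAK-1B and Hepa1-6 TECs in the same way (14.82, 15.13, 15.63 and 16.59).

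Most markers of neutrophils moved with Hp, with 5 of 7 highest in HAK-1B TEC. All 7 were measured in HAK-1B TEC and in Hepa1-6 TEC, and 5 in LSEC and in KYN-2 TEC. The log2 of their summed signal was 11 in LSEC, 17.11 and 11.84 in HAK-1B and KYN-2 TECs, 14.72 in Hepa1-6 TEC and 9.92 in culture, which orders the arrays HAK-1B TEC, Hepa1-6 TEC and then the others, as Hp did. S100a9, a calcium-binding protein abundant in neutrophils, read 9.46, 16.46, 10.61, 14.05 and 5.47. Ngp, a granule protein, was not well above background in LSEC, KYN-2 TEC or culture and read 10.06 and 8.44 in HAK-1B and Hepa1-6 TECs. Ly6g departed from these with its highest signal in culture (9.74), and Mmp8, named after its values were seen, was level across the TECs (9.85, 9.83 and 9.87 in HAK-1B, KYN-2 and Hepa1-6), with no dip in KYN-2 TEC. The part of such cells in the Hp signal was not tested.

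**Figure D3:**
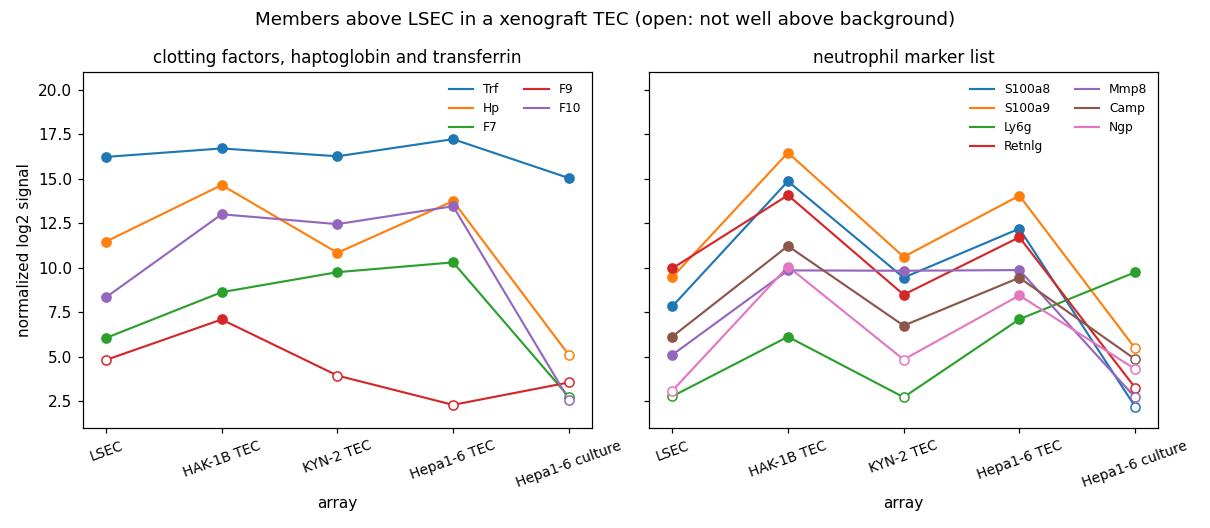
Normalized log2 signal on the 5 arrays for the members that were above LSEC in HAK-1B TEC (left) and for the 7 neutrophil markers (right), with open points not well above background. Hp peaks at 14.64 in HAK-1B TEC and dips at 10.84 in KYN-2 TEC, F10 stays between 12.45 and 13.45 on all TEC arrays, and most of the neutrophil markers peak in HAK-1B TEC.

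F10 and F7 lay above LSEC in all 3 TECs. In the xenograft TECs the other clotting genes compared lay below LSEC, but for F9 in HAK-1B TEC, and in Hepa1-6 TEC all 7 clotting genes compared lay above it. F10, the factor whose active form cuts prothrombin, read 8.33 in LSEC, 13 and 12.45 in HAK-1B and KYN-2 TECs, 13.45 in Hepa1-6 TEC and 2.59 in culture (not measured). It was 25.4-fold, 17.3-fold and 34.7-fold above LSEC in the 3 TECs, in that order, and Hepa1-6 TEC was at least 180-fold above culture. F7, the partner of tissue factor that starts clotting, read 6.05, 8.62, 9.75, 10.30 and 2.74, the last not measured. Its differences from LSEC were 5.95-fold and 13-fold in HAK-1B and KYN-2 TECs and 19-fold in Hepa1-6 TEC. The probes of F7 and F10 lie 20.5 kb apart or less, at chr8:13035287-13055833 (mm9). Proz, a clotting factor gene of the other liver list that was named after its values were seen and lies beside F10 on the chromosome, read 7.68, 5.25, 5.11 and 6.81 on the LSEC and TEC arrays in the same order, lower in each TEC than in LSEC. All 7 markers of macrophages and Kupffer cells were measured on all endothelial arrays, and 3, 1 and 1 of them lay above LSEC in HAK-1B, KYN-2 and Hepa1-6 TECs. The log2 of their summed signal was 19.17 in LSEC and 18.10, 17.64 and 17.67 in these TECs. Cd68, a general macrophage marker named after its values were seen, was above LSEC in each TEC (14.50 in LSEC and 15.35, 15.75 and 14.62 in TECs). Clec4f, a Kupffer cell lectin, read 17.07, 11.50, 14.45 and 15.05. The part of macrophages in the F10 signal was not tested.

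F9, the factor lacking in hemophilia B, was measured in HAK-1B TEC alone. It read 7.09 there against 4.82 in LSEC, 3.94 in KYN-2 TEC, 2.29 in Hepa1-6 TEC and 3.55 in culture, so HAK-1B TEC was at least 4.83-fold above LSEC and at least 18.9-fold above Hepa1-6 TEC. This gene has a single probe on the array.

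The fibrinogen genes lie together, with probes inside 27.6 kb at chr3:82818825-82846393 (mm9), and encode the chains of the clot protein. For each chain Hepa1-6 TEC held the highest signal of the endothelial arrays and LSEC the next, but culture divided them. Fgb read 10.12 in LSEC, 7.47 and 6.93 in HAK-1B and KYN-2 TECs, 13.52 in Hepa1-6 TEC and 12.61 in culture. Fgg read 10.27, 6.69, 5.98, 11.83 and 4.39, and Fga read 5.90, 2.91, 2.92, 6.87 and 3.96. In Hepa1-6 TEC all of them were above LSEC, Fgb by 10.6-fold, Fgg by 2.95-fold and Fga by 1.96-fold. In culture Fgb was 5.64-fold above LSEC, whereas Fgg was not measured and at least 19.8-fold below LSEC. Fga was not measured in either xenograft TEC or in culture.

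F2, the gene of prothrombin, read 9.95, 5.53, 7.66, 10.26 and 4.86, the last not measured. It was 21.5-fold lower in HAK-1B TEC and 4.89-fold lower in KYN-2 TEC than in LSEC, and within 1.24-fold of LSEC in Hepa1-6 TEC. Plg, the precursor of plasmin, was dim: it read 5.22 in LSEC and 5.66 in Hepa1-6 TEC and was not measured on the other arrays.

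All 10 protease inhibitors were below LSEC in HAK-1B TEC by more than the ratio limit, with a median of -3.09. In KYN-2 TEC 9 of 10 were, with a median of -3.08, and in Hepa1-6 TEC 5 were and 4 were higher. Serpina1a and Serpina1b encode forms of alpha-1-antitrypsin, the main inhibitor of neutrophil elastase. Serpina1a read 14.61 in LSEC, 9.71 and 9.82 in HAK-1B and KYN-2 TECs, 12.42 in Hepa1-6 TEC and 10.91 in culture. Serpina1b read 12.46, 8.64, 9.12, 10.97 and 9.94. Both were highest in LSEC, next highest in Hepa1-6 TEC, then in culture, and lowest in the xenograft TECs. The sequence of the Serpina1a probe that gave these values was not compared with that of Serpina1b. The second probe of Serpina1a (10.96, 6.84, 7.12, 9.33 and 7.92) and the probe of Serpina1b share a run of 26 bases. Whether either probe also binds RNA of the other gene was not tested. Both probes are shown to make this overlap visible, at mm9 positions, 5′ to 3′, with the shared run in capitals.
Serpina1a (chr12:105091979-105092038, minus strand): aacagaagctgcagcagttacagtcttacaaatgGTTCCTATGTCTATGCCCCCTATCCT
Serpina1b (chr12:104966520-104966579, minus strand): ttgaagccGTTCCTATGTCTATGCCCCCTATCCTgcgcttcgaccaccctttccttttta
Serpina3k, a kallikrein inhibitor in the same cluster on chromosome 12, was highest in LSEC: it read 10.37, 4.19 (not measured), 4.85, 6.23 and 2.74 (not measured), and was 45.7-fold lower in KYN-2 TEC and 17.6-fold lower in Hepa1-6 TEC.

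The inter-alpha-trypsin inhibitor genes did not move together. The chains encoded by Itih1, Itih2 and Itih3 can be attached to hyaluronan, and Ambp encodes bikunin, the inhibitor they are bound to. Itih2 read 6.48 in LSEC, 4.19 in HAK-1B TEC (not measured), 5.46 in KYN-2 TEC, 11.84 in Hepa1-6 TEC and 12.55 in culture. It was the member furthest above LSEC in Hepa1-6 TEC, 41.3-fold, and in culture, 67.5-fold. Itih4 read 9.90, 6.76, 6.55, 9.09 and 2.32, and Itih3 read 9.27, 8.09, 6.73, 8.47 and 3.83, the culture values not measured. These were below LSEC in each TEC and are neighbors of Itih1 at chr14:31714970-31746567 (mm9), whereas Itih2 is on chromosome 2. Itih1 was measured in LSEC (4.98) and Hepa1-6 TEC (6.24) alone, and its second probe read 6.34 in LSEC and was not measured in Hepa1-6 TEC, so its direction there is not settled. Ambp read 11.12, 9.44, 8.31, 13.64 and 6.85. Hepa1-6 TEC was 5.72-fold above LSEC and 110-fold above culture for Ambp.

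Serpinf2, which encodes the plasmin inhibitor alpha-2-antiplasmin, read 9.08, 6.05, 9.56, 11.93 and 7.84. It was the inhibitor with the widest gap between xenografts, 11.4-fold higher in KYN-2 TEC than in HAK-1B TEC. Serpinc1, the gene of antithrombin, read 9.20, 4.21 (not measured), 5.59, 8.96 and 4.97 (not measured), at least 30.4-fold lower in HAK-1B TEC than in LSEC and within 1.19-fold of it in Hepa1-6 TEC. Its other probe lists no RefSeq transcript and read between 4.87 and 6.12 on the 5 arrays.

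Cultured Hepa1-6 cells kept a part of the list. The 15 genes measured there were Apoa2, Apob, Apoc1, Apom, Alb, Trf, Rbp4, Hpx, Fgb, Serpina1a, Serpina1b, Serpinf2, Ambp, Itih2 and, by the cDNA probe, Mup3. The median difference from LSEC over the 37 genes compared was -3.70 (-2.37 with dim genes at their bounds), beside -0.02 over all 19918 genes, and over the 15 measured on both arrays it was 0.20. By the ratio 29 of 37 were lower than in LSEC (37.8% of all genes) and 7 higher (36.2%). The rule of size placed 12 lower (4.84%) and 2, Rbp4 and Itih2, higher (2.57%). Its limits were wide here, 39.8-fold higher and 51.2-fold lower.

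By the median, these 15 genes lay higher against LSEC than the rest of the list in each TEC. Their median difference from LSEC was 2.52 in Hepa1-6 TEC, with 11 of 15 above LSEC, and in the xenograft TECs it was -2.65 (HAK-1B) and -1.17 (KYN-2). For the other 22 genes compared in Hepa1-6 TEC the median was 0.27, with 14 above LSEC, and in KYN-2 TEC it was -2.55 over 22 and in HAK-1B TEC -3.57 over 23. Set directly against HAK-1B TEC, the median in Hepa1-6 TEC was 4.20 over the 15 and 3.13 over the others. Against KYN-2 TEC these medians were 2.60 and 2.18. The same split over all genes is not given here. Of the 15, 8 were above LSEC in both culture and Hepa1-6 TEC: Apob, Apom, Alb, Rbp4, Hpx, Fgb, Itih2 and the Mup3 cDNA probe, which differed by 1.00-fold in TEC. Apoa2, Apoc1, Serpina1a and Serpina1b were below LSEC in both. Trf, Serpinf2 and Ambp were above LSEC in Hepa1-6 TEC and below it in culture. None was above LSEC in culture and below it in Hepa1-6 TEC.

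**Figure D4:**
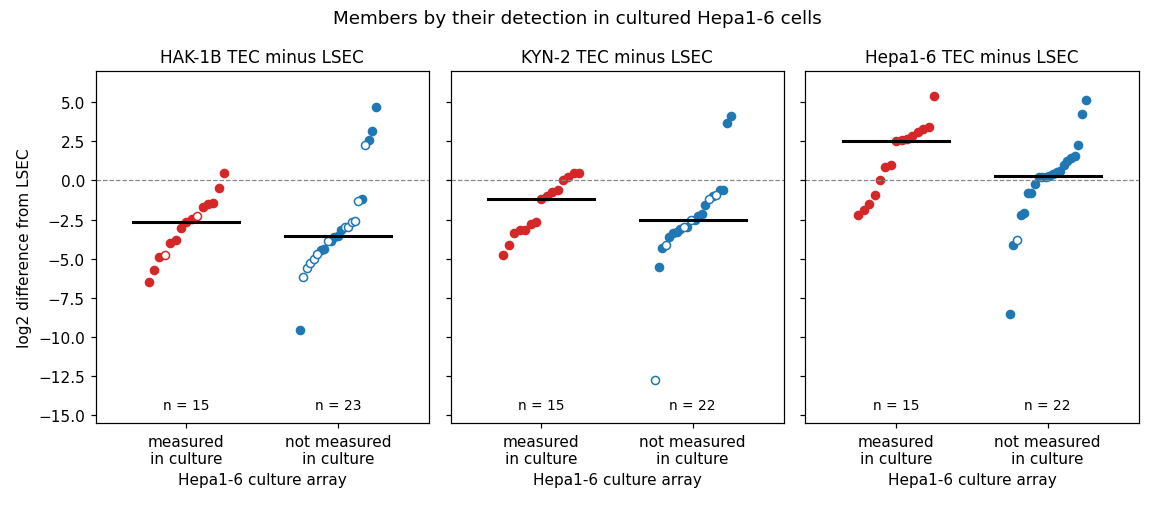
The log2 difference from LSEC of each gene in the 3 TECs, split by whether the gene was well above background in cultured Hepa1-6 cells; each point is a gene, open where either array was not well above background, and the bar is the median. In Hepa1-6 TEC the 15 genes measured in culture have a median of 2.52 and the 22 others 0.27, and in the xenograft TECs both medians are below 0.

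Hepa1-6 TEC also held RNAs that the cultured line did not show. Of the 22 genes compared that were not measured in culture, 8 were above LSEC by the ratio in Hepa1-6 TEC, where 35.4% of all genes were. They were Hp, Ahsg, Vtn, Fga, Fgg, F7, F10 and, by the brighter of its probes, Itih1. By the ratio 7 were below LSEC, where 30.9% of all genes were: Apoa5, Apoc3, Mup1, Serpina3k, Itih3, Itih4 and Hrg, the last not measured in Hepa1-6 TEC. Neither count stood apart from the share of all genes, which was not limited to genes dim in culture. By sign alone 14 were above and 8 below. Set directly against culture, 31 of 36 genes were higher in Hepa1-6 TEC by the ratio (34.3% of all genes), and 4 were lower (32.4%). The rule of size placed 15 higher (4.96%) and none lower, where 1.54% of all genes were. The median difference was 3.66 (2.02 with dim genes at their bounds), beside 0.0030 over all 26357 genes, and 1.34 over the 15 genes measured on both arrays. The culture array had the highest background of the 5, and genes dim in culture were bounds there.

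Other hepatocyte genes were likewise mostly lower than LSEC in the xenograft TECs. Of 58 further plasma protein genes, 49 were measured in LSEC, 32 and 31 in HAK-1B and KYN-2 TECs, 53 in Hepa1-6 TEC and 26 in culture, and their median difference from LSEC was -2.11 and -2.08 in HAK-1B and KYN-2 TECs, 0.12 in Hepa1-6 TEC and -2.08 in culture. By the rule of size 17 of 49 were lower in HAK-1B TEC (3.96% of all genes), 18 of 50 in KYN-2 TEC (2.9%) and 2 of 55 in Hepa1-6 TEC (2.04%). In the same order 2, 2 and 9 were higher (3.13%, 3.67% and 4.48% of all genes). Unlike the members, these genes were not higher in KYN-2 TEC than in HAK-1B TEC. Their median difference there was -0.17 over 35 genes, with 1 higher and 5 lower by the rule of size (3.18% and 2.85% of all genes). Proc, the gene of protein C, read 7.97 in LSEC, 4.39 in HAK-1B TEC (not measured), 4.84 in KYN-2 TEC, 11.45 in Hepa1-6 TEC and 10.86 in culture. Lect2 and C4bp, a liver chemotactic factor and a complement inhibitor, were also highest in the Hepa1-6 samples, at 11.88 and 10.24 in TEC and 12.78 and 9.59 in culture. For 30 genes of hepatocyte metabolism that are not secreted, 26, 13, 16, 25 and 8 were measured on the LSEC, HAK-1B TEC, KYN-2 TEC, Hepa1-6 TEC and culture arrays. Their median difference from LSEC was -3.69, -3.29 and -2.05 in HAK-1B, KYN-2 and Hepa1-6 TECs, so in Hepa1-6 TEC it lay below LSEC where that of the plasma protein genes did not.

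Most liver transcription factors and the fetal marker Afp were highest in a Hepa1-6 sample, in culture for 6 of 11 factors and in TEC for 3. Cebpa and Nr5a2, named after their values were seen, were the exceptions: Cebpa was highest in HAK-1B TEC (12.18) and lowest in culture (8.12), and Nr5a2 was highest in LSEC (10.62). Among the 4 endothelial arrays Hepa1-6 TEC was highest for 7 of the 11. Of the 11 factors, 6 were measured in LSEC, 5 and 8 in HAK-1B and KYN-2 TECs, 11 in Hepa1-6 TEC and 10 in culture. Hnf4a read 8.46, 3.94 (not measured), 5.45, 10.13 and 13.52. Foxa2 read 5.32, 2.26 (not measured), 11.56, 12.07 and 13.08, and so was high in KYN-2 TEC, where most plasma protein genes were low. Afp, the fetal counterpart of albumin, read 7.80 in LSEC, 6.21 and 8.06 in HAK-1B and KYN-2 TECs, 15.38 in Hepa1-6 TEC and 15.92 in culture. The rest of the list of 5 fetal liver and hepatoma genes was divided. Gpc3 was highest in Hepa1-6 TEC (10.13), and H19 was highest in KYN-2 TEC (9.71). Igf2 and Dlk1 were named after their values were seen. Igf2 was highest in KYN-2 TEC (6.67), and Dlk1 was not measured on any array. Cholangiocyte markers were also detected most often on the Hepa1-6 TEC array, with 6 of 6 measured in Hepa1-6 TEC against 2, 2, 4 and 3 in LSEC, HAK-1B TEC, KYN-2 TEC and culture. Among all genes 79.1% were measured in Hepa1-6 TEC, against 56.0%, 58.6%, 56.4% and 47.2% in the same order. Counts of measured genes in this and the other lists, among them the 11 factors, are to be read beside these shares. The part of hepatocytes or tumor cells in the member signals of any array was not tested.

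Taken as 1 group, the 3 TECs could be set against LSEC with limma, in which the lone LSEC array is assumed to vary like the TECs and 2 residual degrees of freedom remain. No member and none of the 42113 probes (0%) passed an adjusted p of 0.05, and the lowest adjusted p of a member was 0.443. At an unadjusted p under 0.05, 8 of 38 members stood, 2 higher and 6 lower, where 8.5% of all probes did. Without the Hepa1-6 TEC array the count was 15 of 38, where 14.8% of all probes did. F10 had a log2 difference of 4.63 ± 0.62 (SE) with an adjusted p of 0.443 by limma, and F7 one of 3.51 ± 0.82 with 0.470. Mup1 differed by -10.27 ± 1.79 and Serpina3k by -5.28 ± 0.94, each with an adjusted p of 0.443 by limma. Alb differed by -2.67 ± 3.70, since the TECs lay on both sides of LSEC.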

How the data were processed

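The authors labelled RNA with Cy3, hybridized it to 60-mer mouse arrays and deposited the spot intensity of each of the 5 arrays, background-subtracted on a linear scale (Agilent Feature Extraction 9.5.1.1 in the submitters' notes), and an intensity table quantile normalized by the authors. The header of the scanner output names a different version of that software. Here control spots were left out, spots of a probe averaged and log2 intensities quantile normalized over the 5 arrays (56605 probes). A probe entered a comparison when flagged present on either array, and 4460 lincRNA probes did not enter. The rule of size followed the methods: a ratio of 1.5 with a Z-score of 2, or 0.66 with -2. With 1 array per condition no test applies, and the 3 TECs against LSEC were fitted with limma 3.58.1 in R 4.3.3 with Benjamini-Hochberg adjustment over all probes. Both steps were tested on simulated data. For limma, recovery of the changes was required only with a small spread set alike for all probes. That simulation does not tell how many changes limma would find at the spread of these arrays. Tables and figures were made with pandas 2.3.3, numpy 2.4.6 and matplotlib 3.10.9 in Python 3.11.15. The number of arrays limits the precision.

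The members and all lists were chosen with earlier results of these data known. Any member could be named, with full values for those with the widest range in each role, and of other lists at most 3 genes with the largest difference between Hepa1-6 TEC and the mean of the xenograft TECs, besides Afp, Pecam1, Stab2 and Hnf4a. Alternatives were 75th percentile scaling, quantile normalization by pair, normexp with an offset of 50, the deposited table, stricter detection, the median over probes, the ratio alone and each TEC left out. MicroRNA arrays and arrays of treated tumors were not analysed here.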

Additional observations from a re-analysis of the deposited data

Results flagged for a closer look

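In 19 of the 38 genes, by the brightest probe of each, Hepa1-6 TEC lay above LSEC and both xenograft TECs lay below it. In 14 of the 19 every probe of the gene gave this order, and in Apob, Ttr, Mup3, Plg and Itih1 another probe did not. For Mup3 both probes with a RefSeq transcript lay below LSEC in Hepa1-6 TEC, where they were not well above background. They were flagged because the tumor lines moved in opposite directions against the same control. The difference was not tested, with 1 array per line, and all 3 comparisons share the LSEC array. Tumor line and species of the tumor cells cannot be told apart here either. The share of all genes in this pattern is not given here, so the count of members cannot be set against it. Past the ratio limits in all 3 comparisons were 11 of them, Alb, Rbp4, Hpx, Ahsg, Vtn, Fga, Fgb, Fgg, Ambp, Itih2 and, by the brighter of its probes, Itih1, and 6 of these 11 were measured in cultured Hepa1-6 cells.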

How the results depend on the processing

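No paired analysis was possible because no condition had more than 1 array. The ratio alone raised the number of members called in KYN-2 TEC against LSEC from 18 to 32, in Hepa1-6 TEC from 6 to 29, in culture from 14 to 36, in KYN-2 against HAK-1B TEC from 15 to 25 and in Hepa1-6 TEC against culture from 15 to 35. Probes well above background on both arrays gave 11, 5, 9 and 4 calls in Hepa1-6 TEC, culture, KYN-2 against HAK-1B TEC and Hepa1-6 TEC against culture, over fewer genes. Shares of all genes called are not given for this filter or for normexp. Normexp gave 14 calls in Hepa1-6 TEC, 11 of them higher; the cause was not tested. Normexp also brought the median of KYN-2 against HAK-1B TEC to 0.44. The median of the members in culture against LSEC changed sign, to 0.20, where only genes measured on both arrays entered. In limma no member passed the adjusted threshold under any alternative, nor without HAK-1B, Hepa1-6 or KYN-2 TEC, a range of 0 to 0, while members under an unadjusted 0.05 ranged from 5 to 15.

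Called members kept their direction under the other scalings, background correction, filters and the median over probes, with 37 of 508 values no longer past the rule. Only 48 of the 508 came from the filter for probes well above background on both arrays. Called members dim on either array could not enter that filter, so it says nothing of them. With another probe that lists a RefSeq transcript, chosen after seeing the data, Mup3 turned to -8.17 in Hepa1-6 TEC and -8.03 in culture, where that probe was not well above background, and Apoa2 to -3.94 in KYN-2 TEC. Dim signal limits the xenograft TEC and culture values most, since 13 and 23 members were not measured in HAK-1B TEC and culture.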
